A study of Rattus norvegicus with 14 samples.

Results

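The taste receptor genes of the rat, named Tas1r and Tas2r, were followed in the lateral ventricle choroid plexus (CP) after removal of the gonads. The members were all genes of the array whose symbol begins with Tas1r or Tas2r, 33 of 15154 named genes. They comprised 2 Tas1r and 31 Tas2r genes, each read by 1 probe. The gene table used for naming holds 41 genes of the 2 families, and 8 of them (Tas1r2, Tas2r102, Tas2r117, Tas2r130, Tas2r145 and 3 pseudogenes) had no probe that carried their accession. Wistar rats were 2 months old, and CP were collected 2 weeks after surgery. The groups were 3 pools of ovariectomized (OVX) females and 3 of sham-operated females, with 4 pools of orchidectomized (OOX) males and 4 of sham-operated males. The operation was the only treatment, no allele differed between groups, and OVX and OOX together are gonadectomy (GDX). Each of the 14 pools combined RNA from 3 animals and was hybridised to 1 single-colour array from 200 ng of RNA. The methods name 3 pools per group where the labels give 4 per male group, and the animals that the study lists with body measurements are too few in each group to fill so many pools without reuse, so that pools of a group may share animals. The p-values therefore measure only the spread between these pools, which may be partly technical.

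Taste receptors are G protein-coupled receptors. The Tas1r proteins work as pairs, Tas1r1 with Tas1r3 for umami and Tas1r2 with Tas1r3 for sweet taste, whereas each Tas2r gene encodes a bitter receptor in a single exon. On taste cells both kinds act through gustducin, phospholipase C beta 2, the inositol trisphosphate receptor Itpr3 and the channel Trpm5, and the same genes are used by chemosensory cells in airway and gut. The CP, an epithelium that secretes cerebrospinal fluid, is one of the tissues outside the tongue in which such receptors have been studied. All 10 marker genes of CP epithelium were well above background on all 14 arrays, 5 of them saturated on every array. In pooled tissue fewer cells of a type and less RNA per cell cannot be told apart.

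Levels are given as the log2 of the background-subtracted signal over the median probe of the same array, so that 0 is a probe of median brightness and a negative value a dimmer one. They compare arrays for 1 probe and set no order between genes. The scanner software marks a spot as well above background, as only positive and significant, or as neither. A spot of the last kind carries a fill value in place of a measurement: on each array its signal equalled the spot's own error estimate within 1% in at least 99.8% of such spots. The fill lay at -6.79, -6.93 and -6.89 in OVX and at -5.95, -6.36 and -5.96 in sham females (array medians over all filled spots), lower by 0.78 on average in OVX. In males it lay between -6.73 and -6.25 in OOX and between -6.82 and -5.93 in sham, a mean difference of -0.12. Spots well above background made up 85.3% to 87.2% of all spots on OVX arrays and 79.7% to 82.7% on sham female arrays, with 83.5% to 86.5% on OOX and 80.3% to 85.7% on sham male arrays.

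Most taste receptor probes were dim. Only 5 of the 33 genes (Tas1r1, Tas1r3, Tas2r109, Tas2r113 and Tas2r116) were well above background on all 14 arrays, where 75.4% of all named genes were. Another 3 reached that mark throughout at least 1 group, Tas2r129 in OVX, OOX and sham males, Tas2r135 in OVX and OOX, and Tas2r118 in OVX. Per group this made 8 members in OVX and 5 in sham females, and 7 in OOX and 6 in sham males, against 82.2%, 76.8%, 80.3% and 77.6% of all named genes in the same order of groups. A further 13 members were well above background on some arrays but throughout no group. These were Tas2r126 on 7 arrays, Tas2r104 on 6, Tas2r124 on 5, Tas2r134 on 4 and Tas2r144 on 3. Tas2r114, Tas2r136 and Tas2r137 reached it on 2 arrays each, and Tas2r110, Tas2r123, Tas2r125, Tas2r138 and Tas2r140 on 1 each.

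The remaining 12 members, or 36.4% of the family against 8.90% of named genes, were on no array well above background. They were Tas2r7l, Tas2r13, Tas2r103, Tas2r105, Tas2r106, Tas2r107, Tas2r108, Tas2r119, Tas2r120, Tas2r121, Tas2r139 and Tas2r143, and Tas2r107, Tas2r108 and Tas2r120 carried the fill value on every array. Fill values made up 34.3% of member spots on OVX arrays and 55.6% on sham female arrays, with 34.8% on OOX and 39.4% on sham male arrays. Counted per array, 9, 14 and 14 members were well above background in OVX and 5, 7 and 5 in sham females. The counts were 13, 10, 11 and 12 in OOX and 7, 10, 12 and 6 in sham males. The female groups did not overlap in this count and the male groups did. The same held for the share of all spots well above background, at 85.3% to 87.2% in OVX and 79.7% to 82.7% in sham females. The count is therefore not particular to the family.

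**Figure D1:**
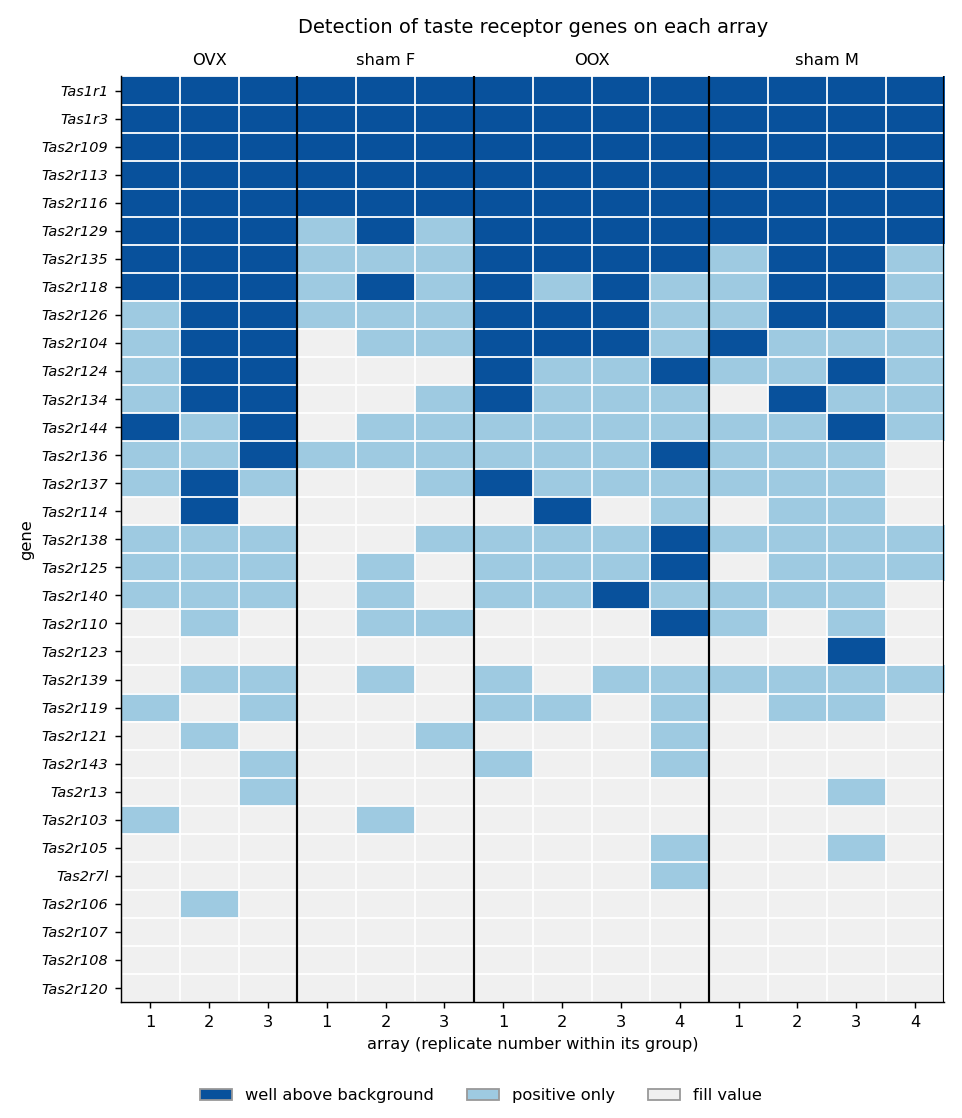
Detection of the 33 taste receptor genes (rows) on the 14 arrays (columns, by group and replicate), dark where the spot was well above background, light blue where it was only positive and significant, and grey where it held the fill value. Only 5 genes were dark on all 14 arrays, and 12 were dark on none.

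The Tas1r genes were both measured throughout. Tas1r1, the umami-specific subunit, lay at -2.19, -2.40 and -2.04 in OVX and at -2.67, -2.55 and -2.77 in sham females. The groups did not overlap, with every OVX pool above every sham pool. The difference was 0.45 ± 0.14 (SE), with a 95% confidence interval of 0.10 to 0.80, and did not pass limma's test over all features (adjusted p = 0.124). In males Tas1r1 lay at -2.91, -2.28, -2.29 and -2.40 in OOX and at -3.01, -2.43, -2.34 and -2.39 in sham, with 1 low pool in each group and a difference of 0.07 ± 0.21. Tas1r3, the subunit shared by umami and sweet receptors, lay at -1.78, -2.04 and -1.24 in OVX and at -1.09, -1.17 and -1.88 in sham females. Its groups overlapped, and the difference was -0.31 ± 0.29 (adjusted p = 0.586). Tas1r3 also overlapped in males, at -3.07, -1.94, -2.24 and -1.44 in OOX and -2.49, -1.42, -1.62 and -2.33 in sham (-0.21 ± 0.38).

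Of the 31 bitter receptor genes, 29 lay on chromosome 4, and the Tas2r genes that were measured best lay there together. Tas2r109, Tas2r113, Tas2r116 and Tas2r129 are printed from their start codon (capitals) over the first 50 bases, as RefSeq gives them on build GRCr8, since they are the bitter receptor genes whose levels the arrays resolved and because close relatives may share signal on a probe. The arrays were annotated on rn4, and the probe sequences were not used here.
Tas2r109, chr4:167845519-167845568, plus strand: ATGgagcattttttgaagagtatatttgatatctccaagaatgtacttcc
Tas2r113, chr4:167942790-167942839, minus strand: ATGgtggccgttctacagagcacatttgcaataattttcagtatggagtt
Tas2r116, chr4:167999317-167999366, minus strand: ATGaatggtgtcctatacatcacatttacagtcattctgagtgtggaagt
Tas2r129, chr4:167876967-167877016, minus strand: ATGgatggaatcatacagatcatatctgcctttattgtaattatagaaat
Base by base, Tas2r113, Tas2r116 and Tas2r129 shared 31 to 33 of the 50 bases with each other, and Tas2r109 shared 21 to 23 with each of them.

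None of these genes passed the test in either sex. Tas2r109 lay at -2.64, -2.43 and -2.48 in OVX and at -3.17, -2.83 and -3.09 in sham females, with no overlap and a difference of 0.51 ± 0.14 (95% confidence interval 0.17 to 0.86, adjusted p = 0.087 in limma). In males the groups overlapped, at -2.43, -2.90, -2.40 and -2.81 in OOX and -2.74, -2.57, -2.53 and -2.28 in sham (-0.11 ± 0.17). Tas2r113 overlapped between groups, at -2.28, -2.01 and -1.73 in OVX and -2.20, -2.18 and -2.28 in sham females. It differed by 0.21 ± 0.17 in females, with a 95% confidence interval of -0.19 to 0.62. In males Tas2r113 lay at -1.65, -2.13, -1.85 and -2.09 in OOX and -2.71, -2.13, -2.17 and -2.13 in sham (0.35 ± 0.19). Tas2r116 varied more, at -2.39, -3.15 and -1.82 in OVX and -2.89, -2.81 and -3.49 in sham females (0.61 ± 0.37). In males it lay at -2.52, -2.08, -2.23 and -3.08 in OOX and -4.07, -2.98, -2.75 and -0.70 in sham, where 1 sham pool was far above the others.

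Tas2r129 lay at -3.87, -3.75 and -3.48 in OVX and at -4.50, -3.94 and -5.05 in sham females, without overlap (0.79 ± 0.29, adjusted p = 0.171 in limma). Of the sham females only replicate 2 was well above background. In males Tas2r129 lay at -3.34, -3.86, -3.11 and -3.30 in OOX and -4.31, -3.60, -3.68 and -3.61 in sham, with overlapping groups (0.40 ± 0.22). Tas2r135 lay at -3.54, -4.11 and -3.01 in OVX and -3.91, -4.15 and -3.85 in sham females, where no array was well above background. Set against the detection limit of the sham arrays, its OVX mean was at least 1.28-fold higher, with overlapping groups and an adjusted p of 0.441. Such a bound divides the brighter group's mean by the mean, over the dim arrays, of the higher of the probe's own signal and the lowest signal well above background. In males Tas2r135 lay at -3.17, -4.26, -2.98 and -3.31 in OOX and -4.58, -3.65, -4.03 and -3.99 in sham (0.63 ± 0.31, adjusted p = 0.688). Tas2r118 was spread widely, at -3.06, -4.20 and -4.47 in OVX and -5.36, -3.76 and -5.85 in sham females (1.08 ± 0.62). In OOX it ran between -5.32 and -1.97, with -4.70 to -3.50 in sham males.

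**Figure D2:**
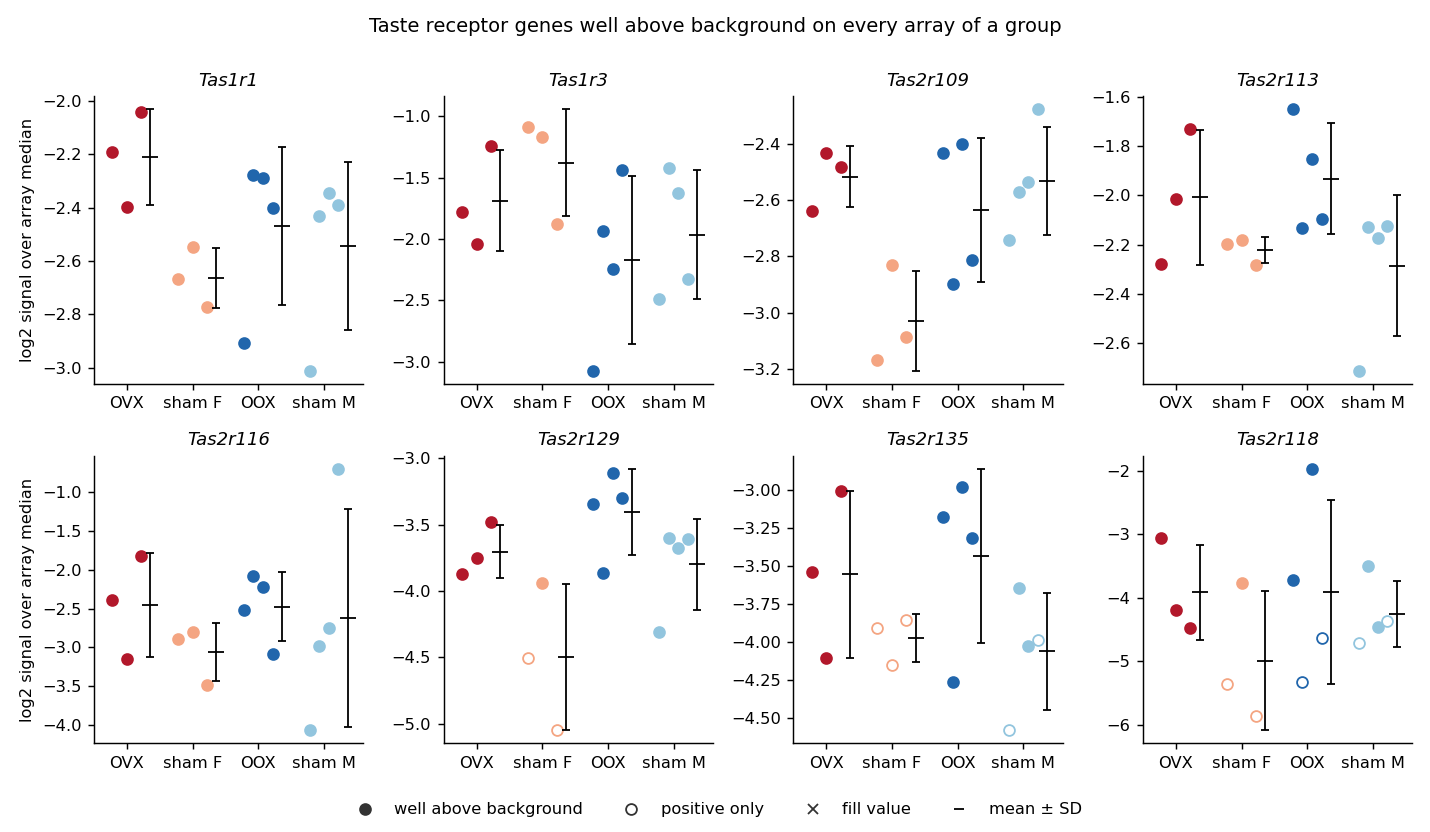
Level of the 8 taste receptor genes that were well above background throughout at least 1 group, as log2 signal over the array median. Each point is 1 pool (filled, well above background; open, positive only), and bars give the mean ± SD (n = 3 in each female and 4 in each male group). In Tas1r1, Tas2r109 and Tas2r129 all 3 OVX pools lay above all 3 sham pools, and no group difference passed the test.

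In the comparison of OVX with sham females, 8 of the 33 members passed at an adjusted p under 0.05 in limma, 4 higher and 4 lower. Over all 27517 features (genes and unnamed probes), 7.23% passed, 2.74% higher and 4.48% lower. The 8 calls were not among the 8 well measured genes. The median difference over the 33 members was 0.25, against -0.04 over all features. At an unadjusted p under 0.05 there were 11 members higher and 8 lower, where 22.4% of features reached that threshold. Of members whose groups did not overlap, 10 were higher and 8 lower in OVX, against 14.5% and 14.7% of all features.

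The 4 genes that rose in OVX were the bitter receptors Tas2r124, Tas2r125, Tas2r137 and Tas2r144, all with an adjusted p of 0.040. Tas2r144 carries the older symbol Tas2r40. Together with Tas2r134, the genes Tas2r124, Tas2r137 and Tas2r144 stand on the study's own list of taste transduction genes, which was chosen on these samples and is no independent evidence of their direction. Tas2r124 lay at -5.13, -4.60 and -4.56 in OVX and at -6.15, -6.63 and -6.07 in sham females. It was well above background on 2 of 3 OVX arrays, and all 3 sham values were fill values (1.52 ± 0.23, SE). Tas2r144 lay at -3.80, -4.60 and -3.90 in OVX and -5.87, -5.67 and -5.85 in sham females. It was well above background on 2 OVX arrays and on no sham array, 1 of whose values was a fill (1.69 ± 0.23).

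Tas2r125 lay at -4.55, -4.78 and -5.08 in OVX and -6.07, -6.44 and -6.02 in sham females. It was well above background on none of the 6 female arrays, with fill values in 2 sham pools (1.37 ± 0.19). Tas2r137 lay at -5.16, -4.53 and -4.84 in OVX and -6.15, -6.63 and -5.94 in sham females, with 1 OVX array well above background and fill values in 2 sham pools (difference 1.40 ± 0.24). In all 4 genes every OVX pool was above every sham pool. None of them has a fold, since the bound against the detection limit of the sham arrays was below 1 in Tas2r124, Tas2r137 and Tas2r144 and Tas2r125 was dim in both groups. Tas2r134, also dim on every sham array, lay at -4.81, -4.60 and -4.39 in OVX and -6.07, -6.54 and -5.11 in sham females, and did not pass (1.30 ± 0.36, adjusted p = 0.087).

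The pattern of fill values in sham and positive spots in OVX was shared by other probes. Of all features with a fill value on at least 1 sham female array and positive spots on all OVX arrays, 11.9% of 1719 passed as higher. Of the 8 members in that class (the 4 that rose, Tas2r104, Tas2r134, Tas2r138 and Tas2r140), 4 did. The signal before the software's correction, in scanner units after subtraction of the local background, was 12.0, 15.5 and 34.0 for Tas2r124 in OVX and 3.0, 3.5 and 9.0 in sham females. For the negative control spots (median of 153 per array) it was 3, 6 and 11 in OVX and 0, 2 and 2 in sham females. Both were thus higher in OVX, and the part of this shift in the calls was not tested.

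The windows around the annotated starts of the 4 genes that rose are shown because they are the members that passed as higher in OVX. Each runs from 250 bases before the start to 50 bases after it, from RefSeq on GRCr8. Capitals mark AGAACA on either strand (TGTTCT when read on the printed strand), the half-site of the androgen and glucocorticoid receptors, and the ATG where it stands at the annotated start.
Tas2r124, chr4:167761694-167761993, plus strand: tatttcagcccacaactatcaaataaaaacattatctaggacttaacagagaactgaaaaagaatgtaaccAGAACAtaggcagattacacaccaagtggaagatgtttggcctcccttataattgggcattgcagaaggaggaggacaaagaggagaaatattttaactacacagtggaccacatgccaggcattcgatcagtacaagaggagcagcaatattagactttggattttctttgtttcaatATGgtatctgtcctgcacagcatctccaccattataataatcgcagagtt
Tas2r125, chr4:167920825-167921124, minus strand: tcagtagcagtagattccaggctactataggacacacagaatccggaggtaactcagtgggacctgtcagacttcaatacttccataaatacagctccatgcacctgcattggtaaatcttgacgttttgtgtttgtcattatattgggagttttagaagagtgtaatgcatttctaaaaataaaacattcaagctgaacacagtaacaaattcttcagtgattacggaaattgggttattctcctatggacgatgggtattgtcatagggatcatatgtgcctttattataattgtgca
Tas2r137, chr4:70250841-70251140, plus strand: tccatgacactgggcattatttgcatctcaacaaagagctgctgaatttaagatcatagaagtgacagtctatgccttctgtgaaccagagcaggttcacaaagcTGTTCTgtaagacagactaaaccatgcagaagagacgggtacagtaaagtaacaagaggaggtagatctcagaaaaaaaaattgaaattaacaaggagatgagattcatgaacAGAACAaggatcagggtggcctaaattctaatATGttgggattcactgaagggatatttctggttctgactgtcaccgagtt
Tas2r144, chr4:72052565-72052864, plus strand: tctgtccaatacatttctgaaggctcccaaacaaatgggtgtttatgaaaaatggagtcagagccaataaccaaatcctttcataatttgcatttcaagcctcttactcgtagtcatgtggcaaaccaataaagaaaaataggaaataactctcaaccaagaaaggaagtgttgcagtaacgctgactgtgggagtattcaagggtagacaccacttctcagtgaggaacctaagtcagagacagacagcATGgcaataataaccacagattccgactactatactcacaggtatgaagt

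Of the 33 members 31 had such a window, and 29 of the 31 began with ATG at the annotated start, where 9.0% of all 33469 windows of that length did. Since the starts are those of the coding sequence in nearly all members, the windows need not hold the promoters in use. AGAACA occurred 179 bases before the start of Tas2r124, and 145 and 32 bases before that of Tas2r137. It was in 9 of 31 member windows (29.0%), against 20.7% of all windows. The half-site of the estrogen receptor, GGTCA, was in none of the 4 windows, in 5 of the 31 (16.1%) and in 40.5% of all windows. The full palindromes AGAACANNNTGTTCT and GGTCANNNTGACC were in none of the 31 windows, and in 0.0149% and 0.0269% of all windows. Most of all windows do not begin at an ATG, so these shares set unlike stretches side by side. They show no excess or lack of sites in the members. Between pairs of the 4 windows 21.6% to 30.4% of the 250 bases before the start were identical position by position.

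The 4 genes called lower were Tas2r105, Tas2r123, Tas2r7l and Tas2r108, bitter receptor genes whose spots carried the fill value on all 6 female arrays. Tas2r105 lay at -6.68, -6.87 and -6.80 in OVX and at -5.89, -6.25 and -5.82 in sham females (-0.80 ± 0.16, adjusted p = 0.040 in limma). Tas2r123 lay at -6.77, -6.88 and -6.83 in OVX and -5.88, -6.29 and -5.94 in sham (-0.79 ± 0.15, adjusted p = 0.040). Tas2r7l differed by -0.76 ± 0.15 (adjusted p = 0.040) and Tas2r108 by -0.73 ± 0.15 (adjusted p = 0.044). Being fill values, they follow the fill level of each array, which was itself lower in OVX, and they give no fold.

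Of the 1147 features that carried the fill value on all 6 female arrays, 77.9% passed as lower and 0 as higher, with a median difference of -0.78. The 6 members in that class had a median of -0.75, and 4 of the 6 passed. All 12 members that were on no array well above background had a negative difference, between -1.10 (Tas2r103) and -0.34 (Tas2r13). Before the software's correction the same spots ran the other way, with 4, 9 and 11 scanner units for Tas2r105 in OVX and 0, 4 and -1 in sham females. For Tas2r108 these were 6, 7 and 12 in OVX and 1, 3 and 1 in sham. The negative control spots of the same arrays were likewise higher in OVX, at 3, 6 and 11 against 0, 2 and 2 in sham females. The signal of both genes was thus near that of blank spots. RefSeq places Tas2r108 within the span of Tas2r137 and Tas2r140 within that of Tas2r103, so that signal of the members of each pair may not be separable.

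**Figure D3:**
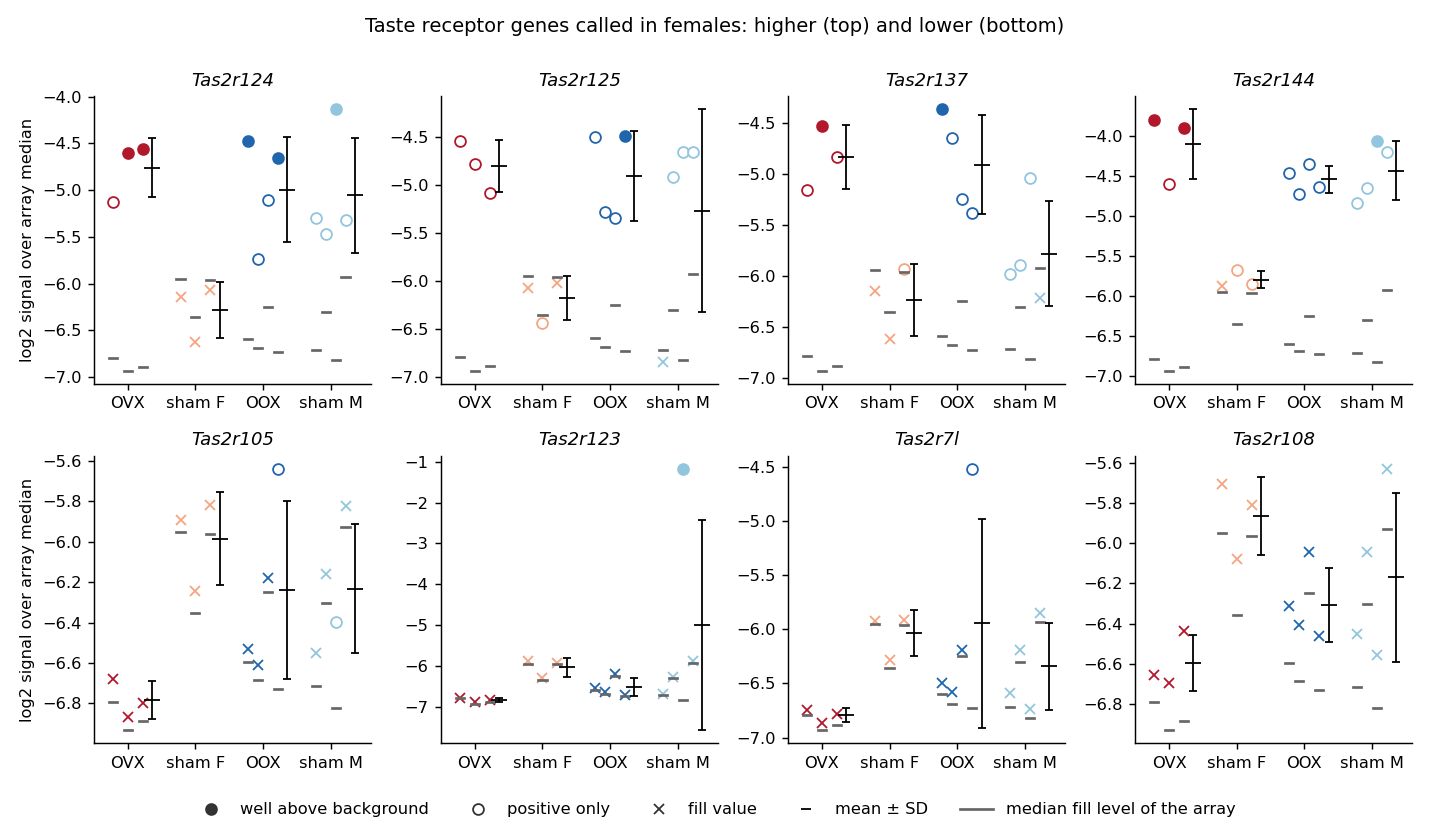
Level of the 8 taste receptor genes that passed in females, those higher in OVX in the upper row and those lower in the lower row, as log2 signal over the array median (each panel has its own scale). Each symbol is 1 pool (filled, well above background; open, positive only; cross, fill value), grey dashes give the median fill level of the array, and bars the mean ± SD (n = 3 in each female and 4 in each male group). In the lower row all 6 female values of each gene are crosses, and they lie near the dashes.

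Few features passed in females once any pool but sham replicate 2 was left out or a block was added. Of all 27517 features 1989 passed with all 6 pools, 4 to 9 without any 1 of the OVX pools, 8 and 20 without sham replicate 1 or 3 and 1998 without sham replicate 2. Of the members 8 passed with all pools, 10 without sham replicate 2 and 0 without any other pool. Their differences moved less. With 1 pool left out Tas2r144 stayed between 1.55 and 1.94, Tas2r124 between 1.35 and 1.70, Tas2r125 between 1.24 and 1.51, Tas2r137 between 1.204 and 1.555, and the 4 genes called lower between -0.93 and -0.65. Genes that passed were selected on these same pools, so that such ranges are no independent evidence of a difference. For the 4 genes called lower they only follow the fill level of the arrays. Background correction by normexp, which models the background of the array and adds an offset, moved the 4 genes that rose more. The offset of 50 exceeded their signal after subtraction of the local background on every female array, which was at most 35 (Tas2r144, OVX replicate 3). Such an offset shrinks any difference of probes this dim, so normexp cannot tell whether their differences hold. With it the differences were 0.061 for Tas2r144, 0.090 for Tas2r124, 0.019 for Tas2r125 and 0.011 for Tas2r137, and 0 members passed, with 201 of all features passing. The only slide that held both female groups had OVX replicate 1 and sham replicate 3. Between these 2 arrays Tas2r124 differed by 0.95, Tas2r125 by 1.47, Tas2r137 by 0.78 and Tas2r144 by 2.04, and each of the 4 genes called lower differed by between -0.86 and -0.83. The fill level was -6.79 on the OVX array and -5.96 on the sham array. A fit with the slide as a block had only 1 residual degree of freedom. In it 0 of all features passed (lowest adjusted p 0.372), and the median difference over the members was -0.23. All sham females and OVX replicate 1 were scanned on the first day and OVX replicates 2 and 3 on the second, and with the scan day as a block 34 features and 0 members passed (median -0.40). Over the 18 or 19 alternatives in which it could be tested, each of the 8 genes passed in 4 to 6.

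In males 0 of the 33 members passed, and 0.0618% of 27516 features did. At an unadjusted p under 0.05 there were 2 members higher and 0 lower, where 7.69% of features reached that threshold. The median difference over the members was 0.10, against 0.01 over all features. The groups of 1 member did not overlap, higher in OOX, against 2.53% of features higher and 1.82% lower. This was Tas2r136, at -4.36, -4.48, -4.56 and -4.26 in OOX and -5.27, -4.88, -4.88 and -5.99 in sham males (0.84 ± 0.25, adjusted p = 0.516 in limma). It was well above background on 1 OOX and no sham male array. In females Tas2r136 lay at -4.68, -5.01 and -3.97 in OVX and -5.60, -5.26 and -5.06 in sham (0.75 ± 0.29, adjusted p = 0.198).

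Of the genes that rose in OVX, Tas2r137 had the smallest p in males. It lay at -4.37, -4.65, -5.25 and -5.39 in OOX and -5.99, -5.90, -5.04 and -6.22 in sham males, with 1 sham pool among the OOX values (0.87 ± 0.32, adjusted p = 0.646). The other 3 overlapped widely in males. Tas2r124 lay at -4.47, -5.74, -5.11 and -4.66 in OOX and -5.30, -5.47, -4.14 and -5.32 in sham males (0.06 ± 0.37). Tas2r125 lay at -4.51, -5.29, -5.34 and -4.49 in OOX and -6.84, -4.92, -4.66 and -4.66 in sham males, the lowest being a fill value (0.36 ± 0.50).

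Tas2r144 lay at -4.46, -4.72, -4.35 and -4.63 in OOX and at -4.84, -4.64, -4.06 and -4.20 in sham males (-0.11 ± 0.20). It was the 1 member that passed in the test of the male effect minus the female effect, at -1.80 ± 0.32 with an adjusted p of 0.041 in limma, where 0.229% of 27516 features passed. Across the alternatives its adjusted p ran between 0.019 and 0.674. Its level in sham females, -5.80 ± 0.11 (SD, n = 3), was below all male pools and all OVX pools. All sham females were scanned on the first day and all males on the second, on other slides. Sex therefore cannot be told apart from scan day and slide in these levels. At an unadjusted p 5 members reached a value under 0.05 in that comparison, against 11.7% of features. For Tas2r124 the male effect minus the female effect was -1.46 ± 0.50 (adjusted p = 0.346).

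The members with the smallest p among those lower in OOX were Tas2r123, Tas2r106 and Tas2r13, and all were dim in OOX. Tas2r123 lay at -6.55, -6.64, -6.21 and -6.70 in OOX and at -6.69, -6.28, -1.18 and -5.87 in sham males. Apart from sham replicate 3, the 1 array on which it was well above background, every value was a fill, and the difference was -1.52 ± 1.09 (adjusted p = 0.852). Tas2r106 carried the fill value on all 8 male arrays (-0.15 ± 0.22) and Tas2r13 on 7 of them (-0.13 ± 0.21). Single bright pools occurred in other dim members too. Tas2r134 lay at -1.67 in OOX replicate 1 and between -5.25 and -4.51 in the other OOX pools, with -6.95, -3.58, -5.06 and -5.61 in sham males (1.22 ± 0.91).

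**Figure D4:**
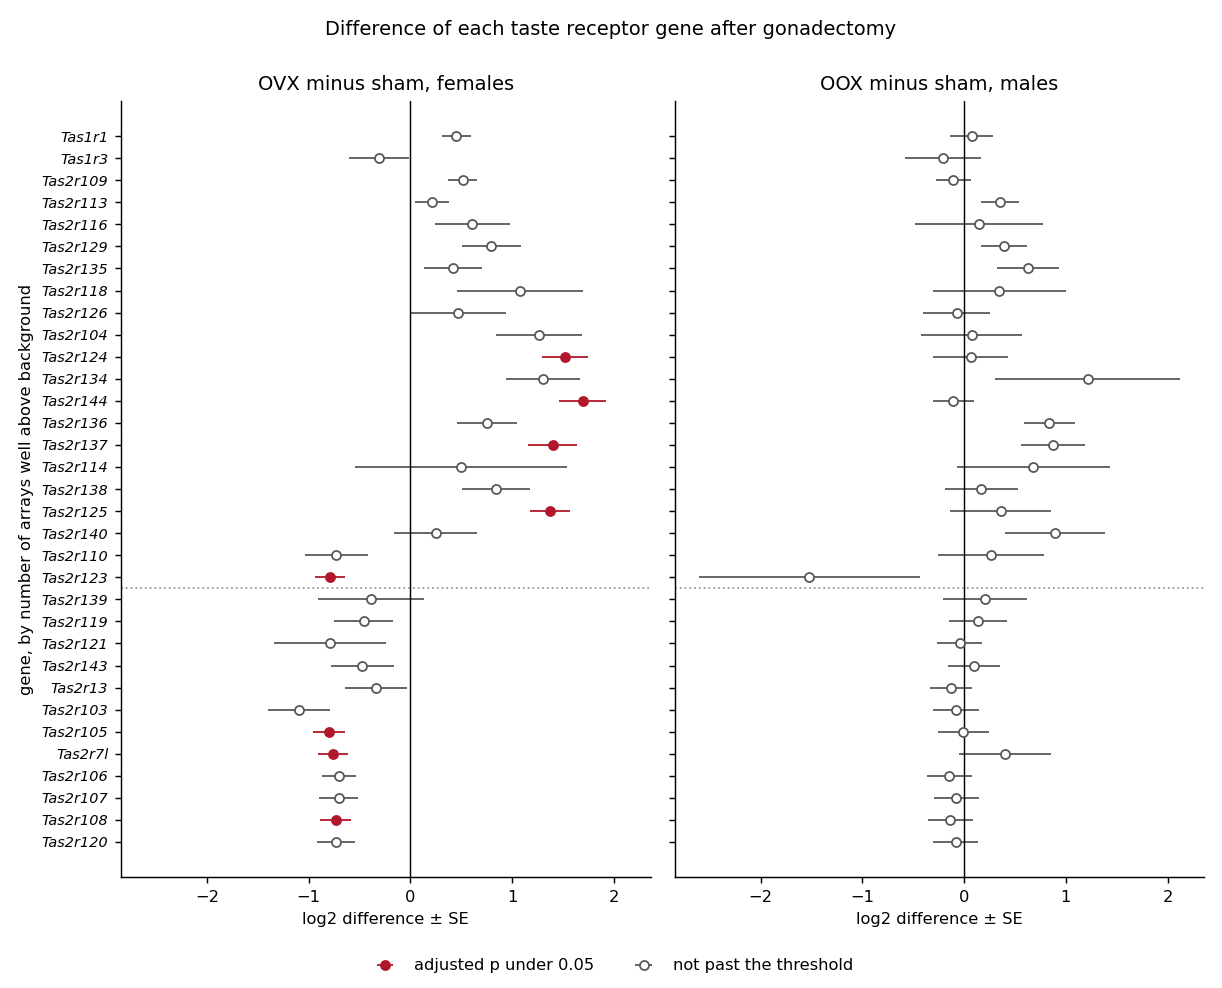
Difference of each of the 33 taste receptor genes, OVX minus sham in females (left) and OOX minus sham in males (right), on the log2 scale with its SE, ordered by the number of arrays well above background and then by the number of arrays positive. Filled points passed at an adjusted p under 0.05 (8 in females, 0 in males). Below the dotted line are the 12 genes on no array well above background, all of which lie left of 0 in females.

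Genes of the taste cascade, here transduction partners of taste receptors and channels of taste cells, were detected more often than the receptors. Of a list of 17 such genes 15 were measured, and 12 of the 15 were well above background on all 14 arrays. Of all named genes 75.4% were, so that this share is near that of genes in general. In females 2 passed as higher and 1 as lower, against 2.74% and 4.48% of all features, with a median difference of 0.24. In males 0 passed (median 0.04), against 0.0618%. Gnb3, a G protein beta subunit of taste cells, averaged -1.08 ± 0.06 in OVX and -1.93 ± 0.09 in sham females (SD, n = 3 each), and rose by 0.85 ± 0.12 (SE, adjusted p = 0.040 in limma). Plcb2, the phospholipase of the cascade, was well above background on all 3 OVX arrays and on no sham female array, and was at least 1.34-fold higher in OVX (adjusted p = 0.040). Both stand on the study's own list. Gnb3 passed in 8 and Plcb2 in 6 of 21 alternatives, and neither passed without any 1 OVX pool or without sham replicate 1 or 3, where few features passed at all. With 1 pool left out Gnb3 stayed between 0.81 and 0.90 and Plcb2 between 0.82 and 0.92, and with normexp they differed by 0.43 and 0.025. Gnat3, the alpha subunit of gustducin and the gene that passed as lower, carried the fill value on all 6 female arrays, and its difference of -0.81 ± 0.14 (adjusted p = 0.040) was close to that of the fill. Trpm5 averaged -1.58 ± 0.41 in OVX and -2.25 ± 0.23 in sham females, and did not pass (adjusted p = 0.162). Gng13, well above background on all 14 arrays, lay lower in OVX, at 1.35 ± 0.38 against 2.82 ± 0.97 in sham females (SD). Its difference of -1.47 ± 0.49 (SE) did not pass either (adjusted p = 0.140 in limma). Trpm4 differed by -0.33 (adjusted p = 0.214) and Scnn1g, on no sham female array well above background, by 0.53 (adjusted p = 0.096).

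Tuft and other chemosensory cells are among the cells outside the tongue that carry taste receptors. Their markers were measured for 7 of 8 genes, 4 of them well above background on all 14 arrays. In females 0 passed as higher and 2 as lower, against 4.48% of all features lower, and in males 0 passed. Pou2f3, a transcription factor of such cells, averaged -2.73 ± 0.04 in OVX and -2.14 ± 0.05 in sham females (SD, n = 3 each) and fell by 0.59 (adjusted p = 0.040 in limma). It passed in 5 of 21 alternatives and in none that left out a pool, where it stayed between -0.61 and -0.56, and with normexp it differed by -0.26. The other was Hmx2, which carried the fill value on all 6 female arrays, a class of which 77.9% passed as lower. The summed level of the list ran between 1.74 and 2.01 in OVX and between 2.35 and 3.13 in sham females, and between 2.14 and 3.05 in OOX and between 1.65 and 2.61 in sham males. That sum was mostly Dclk1, a kinase that neurons also express, which averaged 1.48 ± 0.15 in OVX and 2.64 ± 0.50 in sham females (SD, n = 3 each) and did not pass (-1.17, adjusted p = 0.0504). Avil differed by 0.63 (adjusted p = 0.291), Chat by 0.54 (adjusted p = 0.159) and Il25 by 0.39 (adjusted p = 0.144).

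None of the measured markers of neurons (10), astrocytes and ependyma (7), oligodendrocytes (5), endothelium (5), fibroblasts (5), macrophages (6) and CP epithelium (10) passed in either sex. For the neuron list the median difference was -0.90 in females, -2.60 between the arrays of the slide shared by both female groups, and 0.51 in males, where it was -1.03 within the shared slide. Its summed level ran between 2.58 and 4.26 in OVX and between 3.09 and 5.51 in sham females, and between 2.82 and 5.16 in OOX and between 2.02 and 6.14 in sham males, so that the groups overlapped. Snap25, a synaptic protein, averaged 1.34 ± 1.01 in OVX and 2.88 ± 1.51 in sham females (-1.54, adjusted p = 0.344). The median was -0.32 in females and 0.53 in males for fibroblasts, -0.19 and 0.34 for astrocytes and ependyma, and -0.08 and 0.44 for oligodendrocytes. It was 0.04 and -0.23 for endothelium, 0.07 and 0.23 for macrophages, and -0.20 and -0.31 for CP epithelium. Of the 10 CP epithelium genes 5 were saturated on every array. The level of a saturated spot follows the array median, so that their differences and lack of calls give no measure of expression. The part of other cells in the levels of the receptors was not tested.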

How the data were processed

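RNA of 14 CP pools was measured on single-colour Agilent arrays. The deposited scanner files hold fluorescence intensity per spot, from which the authors' software (Feature Extraction 10.5.1.1) had subtracted background and trends, with no scaling between arrays. The deposited value table holds log2 values that the authors centred on the median, and served as an alternative. The log2 signal minus the array median of 30367 rat probes was used; control and outlier spots were left out and saturated spots kept. Probes were named by RefSeq accession (GRCr8, names only), and 18004 probes gave 15154 genes, the brightest probe standing for a gene.

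Groups were compared within each sex with limma 3.58.1 in R 4.3.3 (lmFit, eBayes), with Benjamini-Hochberg adjustment over all genes and unnamed probes, and the difference between the sexes in 1 fit. The fits were tested on simulated data. Python 3.11.15 with numpy 2.4.6 and pandas 2.3.3 was used for the summaries. The number of arrays limits the precision.

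The members, the lists (taste cascade, cell markers) and the tests were chosen with earlier results of these data known; a further list is not reported here. Named with array values were the Tas1r genes, members well above background throughout a group, members that passed, the 4 Tas2r genes of the study's list and, in males, the 3 with the smallest p in each direction. Alternatives were other scalings, normexp with an offset of 50, spot filters, the replicate number, slide or scan day as a block, the methods' t-test and each pool left out.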

Additional observations from a re-analysis of the deposited data

Results flagged for a closer look

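In groups of 4, a pool whose gap to its neighbour exceeded Dixon's 95% critical share of the range was looked for in the 20 members given with array values, in both male groups. Of 40 such groups 6 had one, all in sham males. Chance alone flags about 5% of independent groups. The 40 groups were 20 members read on the same male arrays and are not independent, so their count cannot be set against that rate. Sham male replicate 1 was the low pool in 4 of them, at -3.01 in Tas1r1, -2.71 in Tas2r113, -4.31 in Tas2r129 and -6.84 (a fill value) in Tas2r125. Sham male replicate 3 was the high pool in the other 2, at -1.18 in Tas2r123 and -4.14 in Tas2r124. The effect of GDX on Tas2r144 differed between the sexes in the test of the difference itself, by -1.80 on the log2 scale (male minus female effect). The gene was well above background on no sham female and no OOX array, and 1 sham female value was a fill. It passed in that test in 6 of 25 alternatives (adjusted p between 0.019 and 0.674). With normexp, whose offset exceeded the signal of Tas2r144 on every array, the difference was -0.31.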

How the results depend on the processing

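The number of members that passed in females was 8, and was 7 with 75th percentile scaling and 8 with outlier spots kept, with the mean over probes and with the value table. It was 1 with quantile normalization and with all groups in 1 fit, where 143 and 506 of all 27517 features passed. It was 0 with normexp (on the median signals of the files), where 201 of all features passed. It was 0 with probes well above background only (8 members fitted, 486 of 21860 features passing) and with a trend in the prior variance (185 passing). It was also 0 with the slide or scan day as a block and with the methods' t-test after Benjamini-Hochberg adjustment, where 0, 34 and 13 features passed. The same held in 2 alternatives chosen after seeing the data: filled spots left out (21 members fitted, 100 of 24433 features passing) and values raised to a common floor of -3.75 (11 fitted, 262 of 22547 passing). With so few features passing, 0 calls are not particular to the members. At the methods' unadjusted p under 0.05 and fold above 1.5, the t-test gave 13 (5 higher, 8 lower) in females and 2 in males. The share of all features at that threshold was not computed, so these counts have no background to be read against. In limma 22.4% of features in females and 7.69% in males had an unadjusted p under 0.05. Leaving out 1 pool gave 0 to 10 in females and 0 in males. With the replicate block 0 passed in females, in males and in the difference between the sexes. The female fit with that block had 2 residual degrees of freedom, and 0 of all features passed in it. Same-numbered pools correlated by -0.02 to 0.14 in females and -0.31 to 0.14 in males. The best match of OVX replicates 1 and 3 was the sham pool of the same number, and no OOX pool matched its own number best. Whether the numbers mark a pairing cannot be told from so few pools. The 1 call in the difference between the sexes was kept with 75th percentile scaling, outlier spots kept, the mean over probes and the value table. It was 0 in all other alternatives that refit all pools, where 15 to 104 features passed. Leaving out 1 pool gave 0 to 1. Where an alternative gave 1 or 7 calls in females, these were among the 8.

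The median over members in females, 0.25, was 0.067 with quantile normalization, -0.024 with normexp, 0.48 with probes well above background only, -0.23 with the slide as a block and between the arrays of the shared slide, -0.40 with the scan day as a block and 0.47 with filled spots left out, and 0.08 to 0.41 without 1 pool. In males, 0.10, it was -0.17 with normexp, 0.33 with the slide as a block and within the shared slide, 0.35 with filled spots left out and -0.08 to 0.15 without 1 pool. All males were scanned on 1 day, so that no block for it could be fitted there. Members well above background throughout a group numbered 8, and 19 when positive spots counted.

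Among single genes in females, Tas1r3 turned to 0.10 with the slide as a block and within the shared slide, Tas2r113 to -0.056 with the scan day as a block and Tas2r135 to -0.024 with normexp. In males normexp turned Tas1r1 to -0.10, Tas2r116 to -0.16, Tas2r118 to -0.061, Tas2r129 to -0.065, Tas2r135 to -0.054, Tas2r136 to -0.16 and Tas2r137 to -0.17, and quantile normalization turned Tas1r1 to -0.074. The slide block and the shared slide turned Tas1r3 to 0.52 and Tas2r118 to -0.53. With 1 male pool left out, Tas1r1 ran from -0.081 (without sham replicate 1) to 0.22, Tas1r3 from -0.45 to 0.093 (without OOX replicate 1), Tas2r13 from -0.25 to 0.016 and Tas2r106 from -0.27 to 0.033 (both highest without sham replicate 4), Tas2r116 from -0.33 (without sham replicate 1) to 0.79 and Tas2r118 from -0.30 (without OOX replicate 3) to 0.82. The causes were not tested. For dim members the signal over background limits every comparison.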
